A study of Mus musculus with 37 samples.

Results

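Estradiol (E2) given on top of progesterone (P4) was examined in mature luminal cells that carry the Y541S mutation of Esr1. To this end the 3 Y541S libraries from animals with both hormones (Y541S E2P4) were set against the 3 Y541S libraries from animals with P4 alone (Y541S P4). These 6 libraries, chosen by their titles, belong to a series of 37 RNA-seq libraries. Every group was made from mice raised to 8 weeks of age, ovariectomized and then left for 8 days with implanted pellets. Ovarian hormones were thus removed from all of them and replaced by E2 and P4, by P4, by E2 or by placebo. Mature luminal cells were isolated by fluorescence-activated sorting, and cDNA libraries were made with the Nextera XT kit. The same addition of E2 to P4 in WT cells (3 E2P4 and 4 P4 libraries) and in D542G cells (3 and 3), and E2 against placebo in Y541S cells (3 and 3), were used only to show where the Y541S response differed. The series calls the samples biological replicates. The labels do not say whether a library is 1 animal or a pool, nor the strain or whether 1 or both alleles carry the mutation. The p-values thus cover only scatter between libraries. For each gene that scatter was estimated over all 37 libraries, not over the 6 compared alone.

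Mature luminal cells are the hormone-sensing cells of the mammary duct. Estrogen receptor alpha, the product of Esr1, is a ligand-activated transcription factor that induces the progesterone receptor gene Pgr and genes such as Greb1. Both receptors act on neighbouring cells through secreted paracrine factors. Substitutions in the last helix of its ligand-binding domain, found in human breast tumours under endocrine therapy, give the receptor activity without hormone, which makes it of interest what added E2 still changes. The mutated codons of mouse Esr1 are shown in their reference form, with the codons of Y541S (TAT) and D542G (GAC) in capitals, in exon 9 of 9 on GRCm38.

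Esr1 codons around the mutated positions, chr10:5001229-5001264, plus strand: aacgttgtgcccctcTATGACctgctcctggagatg

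Gene counts cannot show a substitution, and they do not check the genotype label. Esr1 itself (chromosome 10, 4611593 to 5005614) was at 56.3, 66.8 and 65.1 CPM (counts scaled to the size of the library) in the Y541S E2P4 libraries, against 100.5, 71.6 and 57.1 CPM in the Y541S P4 libraries. The groups overlapped, and the log2 fold change was -0.28 ± 0.33 (SE; edgeR quasi-likelihood test, Benjamini-Hochberg adjusted p = 0.844). Throughout, a log2 fold change is Y541S E2P4 over Y541S P4 ± SE unless another group is named, and a gene was called where the adjusted p over all 18426 genes tested was under 0.05.

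The 6 libraries held 32.67 to 44.4 M counts and 19663 to 20330 genes with a count. Markers of the sorted population, 10 genes, summed to 9287, 10218 and 10870 CPM in Y541S E2P4 and to 10741, 9616 and 9121 CPM in Y541S P4. The summed level of 8 luminal progenitor markers was higher in every Y541S E2P4 library, at 3735, 3160.5 and 2662 CPM, than in every Y541S P4 library, at 2368, 1958 and 2196 CPM. None of the 8 was called by edgeR (1 at an unadjusted p under 0.05, and 1 called by DESeq2, both lower), and the part of this shift in the results was not tested; 29.0% of all genes tested had groups that did not overlap. Basal markers summed to 307 to 441 CPM in Y541S E2P4 and 257 to 561 CPM in Y541S P4, and fibroblast markers to 247 to 609 CPM in Y541S E2P4 and 459 to 699 CPM in Y541S P4. Leukocyte markers stayed at 16.5 to 33.0 CPM in Y541S E2P4 and 10.2 to 31.0 CPM in Y541S P4, with Ms4a1 and Itgam at 0 in all 6 libraries. In these bulk samples, fewer cells of a type and less RNA per cell cannot be told apart. No library stood broadly apart, but of the 10414 genes whose mean log2 CPM was 2 or more, Y541S P4 library 3 had 7 that were at least 4 times higher than in both other libraries of its group, and library 1 had 4.

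Adding E2 to P4 in Y541S cells changed genes in both directions. In the fit of all 37 libraries, edgeR called 162 genes higher (0.879% of those tested) and 148 lower (0.803%), 310 in all (1.68%), and 168 of them changed at least 2-fold, 80 up and 88 down. The median log2 fold change was 0.98 over the genes called higher, -1.13 over those called lower and -0.01 over all genes tested. The groups did not overlap for 308 of the 310, beside 5342 of all 18426 genes tested (29.0%). The 310 were called from these same libraries, so their lack of overlap is not separate support. Calls were sensitive to single libraries: 154, 200 and 120 genes were called without Y541S E2P4 library 1, 2 and 3, and 121, 96 and 113 without Y541S P4 library 1, 2 and 3. They were also sensitive to the fit: DESeq2 called 643, and edgeR fitted to the 6 libraries alone called 1966 of 15374 genes (12.8%), 1033 higher (6.72%) and 933 lower. In that fit the lists described below had more members called, among them 15 of 25 folding, 24 of 34 signal peptide and 13 of 24 COPII genes higher, and 19 of 23 immediate early and 13 of 25 cytokine feedback genes lower. Some genes for the handling of secreted proteins, some of growth restraint and a few secreted factors rose, while some immediate early and cytokine-feedback genes fell. The plot of fold change against adjusted p names the main ones.

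**Figure D1:**
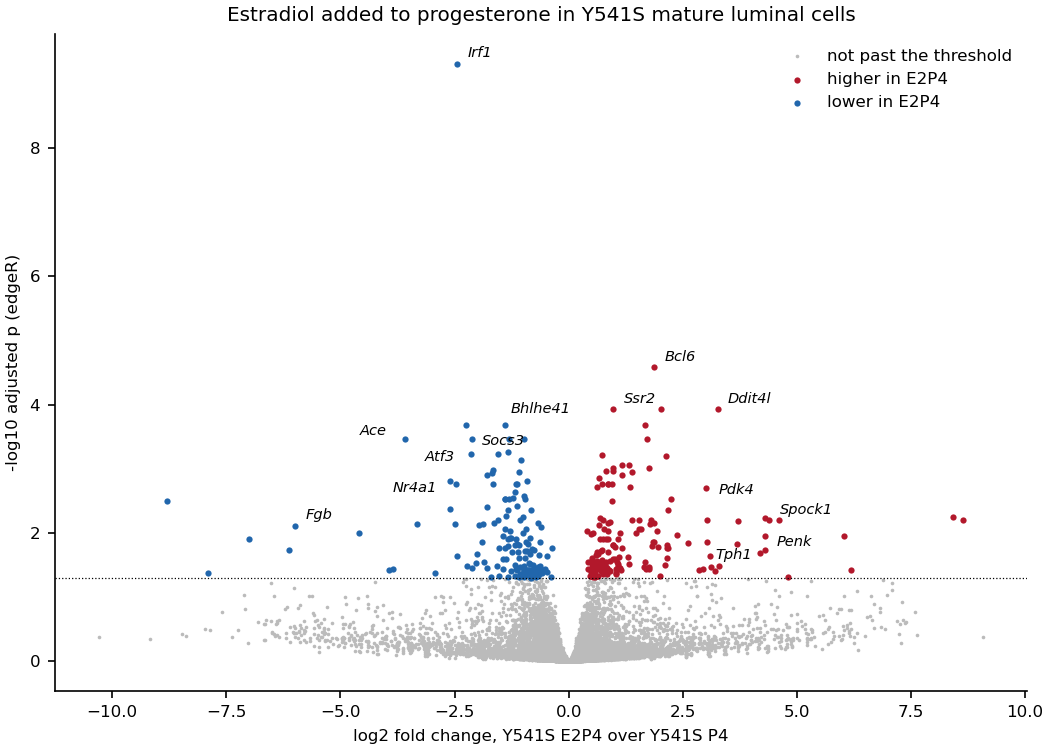
Each point is 1 of the 18426 genes tested: the x axis is the log2 fold change of Y541S E2P4 over Y541S P4, the y axis is -log10 of the edgeR adjusted p, and the dotted line marks 0.05. The 162 genes called higher (red) and the 148 called lower (blue) lie above the line, with Irf1 at an adjusted p of 4.8e-10 farthest up and Bcl6 the highest of the genes that rose.

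Greb1, Pgr and Fkbp5, widely used readouts of these hormones, were not called in Y541S cells in the fit of all libraries or in any of the 13 alternatives. Greb1, an early E2-induced gene (chromosome 12, 16670615 to 16800886), was at 29.8, 27.4 and 36.1 CPM in Y541S E2P4, against 22.7, 29.3 and 16.3 CPM in Y541S P4, with overlap between the groups (log2 fold change 0.45 ± 0.49, adjusted p = 0.825). In WT cells the same addition of E2 gave Greb1 192 ± 64.5 CPM (SD, n = 3) against 4.25 ± 1.79 CPM under P4 (n = 4), a log2 fold change of 5.50 ± 0.52. The 2 responses differed by -5.05 (adjusted p = 2.5e-05, edgeR). The Y541S level of Greb1 under P4 alone thus lay above that of WT P4 cells and below that of WT E2P4 cells in every library. Pgr was at 119, 117 and 149 CPM in Y541S E2P4 against 106, 117 and 105 CPM in Y541S P4 (0.22 ± 0.36, adjusted p = 0.908). Fkbp5, a cochaperone gene induced by steroid receptors, was at 262, 347 and 285 CPM in Y541S E2P4 against 287, 344 and 331 CPM in Y541S P4, again with overlap (-0.11 ± 0.46, adjusted p = 0.972). Here the WT response of 3.64 ± 0.46 differed from that of Y541S cells by -3.75 (adjusted p = 0.000389). Of 26 estrogen receptor targets tested, 2 were called, Myc higher and Fos lower, with a list median of -0.12. Of 20 progesterone receptor and steroid targets, 2 were called, Tph1 higher and Per1, a circadian repressor, lower, with a median of -0.29. Both counts stand beside the 1.68% called among all genes. The 6 libraries alone gave 2 higher and 6 lower on the first list and 3 higher and 7 lower on the second. That fit called 12.8% of all its genes. None of the 19 genes of hormone-sensing luminal identity was called by edgeR (3 at an unadjusted p under 0.05, all lower, and 1 called lower by DESeq2; 12.1% of all genes had such a p). Among them Foxa1, a pioneer factor of the estrogen receptor, was at 37.4, 34.6 and 39.4 CPM in Y541S E2P4 against 49.9, 53.9 and 49.8 CPM in Y541S P4 (-0.46 ± 0.43, adjusted p = 0.774, and 0.0169 in the fit of the 6 libraries alone). Gata3, a luminal transcription factor, had a log2 fold change of -0.01 ± 0.26.

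Penk, Spock1, Tph1 and Csf1 rose by over 2 on the log2 scale. Penk, which encodes preproenkephalin, was at 995, 484 and 627 CPM in Y541S E2P4 and at 17.5, 61.3 and 29.1 CPM in Y541S P4. Every E2P4 library was thus far above every P4 library (log2 fold change 4.29 ± 0.98, adjusted p = 0.0187). The call was lost without Y541S E2P4 library 1 (adjusted p = 0.0602) and without Y541S P4 library 1, 2 or 3 (0.126, 0.0585 and 0.117). Spock1, the gene of the extracellular proteoglycan testican (chromosome 13, 57421195 to 57908332), was at 29.0, 24.9 and 42.3 CPM in Y541S E2P4 against 1.28, 2.10 and 1.19 CPM in Y541S P4. It had the largest rise among called genes whose groups did not overlap and whose mean log2 CPM was 2 or more, 4.39 ± 0.87 on the log2 scale (adjusted p = 0.00632; 0.0511 without Y541S P4 library 1 and 0.0549 without library 3). Tph1, the hydroxylase that starts serotonin synthesis outside the brain, reached 509, 358 and 399.7 CPM in Y541S E2P4 against 48.3, 58.7 and 48.2 CPM in Y541S P4. Its log2 fold change was 3.03 ± 0.67 (adjusted p = 0.014, and 0.0843, 0.0747 and 0.0877 without Y541S P4 library 1, 2 and 3). Csf1, the macrophage growth factor, stood at 79.4, 103 and 111 CPM in Y541S E2P4 against 22.2, 19.6 and 14.8 CPM in Y541S P4 (2.37 ± 0.50, adjusted p = 0.011; 0.0656 without Y541S P4 library 2, 0.0864 without library 3 and 0.0783 in the fit of the 12 Y541S libraries).

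Cthrc1, a secreted collagen triple helix repeat protein, was at 43.0, 47.5 and 54.9 CPM in Y541S E2P4 and at 12.1, 11.5 and 12.1 CPM in Y541S P4, a log2 fold change of 2.03 ± 0.27 (adjusted p = 0.000118). P4ha2, a collagen prolyl hydroxylase of the endoplasmic reticulum, was at 288, 249 and 280.0 CPM in Y541S E2P4 against 61.3, 47.8 and 63.1 CPM in Y541S P4 (2.25 ± 0.41, adjusted p = 0.00302). Both groups were tight for these genes, and both calls held in all 13 alternative analyses. Among the other large rises were Slc34a2, a sodium phosphate transporter (3.71 ± 0.74; adjusted p = 0.0065, and 0.0556 and 0.0551 without Y541S P4 library 1 and 2), and Prdm1, a transcriptional repressor (3.04 ± 0.60; adjusted p = 0.00632, and 0.0557 and 0.0555 without Y541S P4 library 2 and 3). Emb, Cdh2, Pla2g7, Ripply3 and Tmprss6 rose by 2.95 to 3.30 on the log2 scale (adjusted p = 0.023 to 0.0396). Each lost its call without Y541S E2P4 library 1 and without any 1 of the Y541S P4 libraries, all but Emb and Ripply3 also without Y541S E2P4 library 2 and all but Ripply3 without library 3, at adjusted p values up to 0.207. Of 18 paracrine factors of hormone-sensing cells, Penk was called higher and Inhbb, an activin subunit, lower (-1.17 ± 0.29; adjusted p = 0.0315, and 0.136 and 0.171 without Y541S E2P4 library 2 and 3, and 0.103, 0.0848 and 0.108 without Y541S P4 library 1, 2 and 3). The RANK ligand gene Tnfsf11 was at 203, 201 and 215 CPM in Y541S E2P4 against 200.3, 272 and 302 CPM in Y541S P4 (-0.32 ± 0.94, adjusted p = 0.957). The values for Wnt4 and Areg also overlapped between groups. Penk and Inhbb, of 18 paracrine factors, stand beside 1.68% of all genes called in either direction.

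Bcl6 and several genes known to restrain growth or shift metabolism rose with little scatter between libraries. Bcl6, a transcriptional repressor (chromosome 16, 23965052 to 23988852), was at 54.0, 56.6 and 71.3 CPM in Y541S E2P4 and at 16.7, 16.0 and 16.9 CPM in Y541S P4. It had the smallest adjusted p of the genes that rose (log2 fold change 1.87 ± 0.22, adjusted p = 2.58e-05). Arrdc3, an arrestin-domain protein that restrains growth of mammary cells, was at 108, 89.0 and 96.4 CPM in Y541S E2P4 against 34.6, 39.1 and 43.3 CPM in Y541S P4 (1.33 ± 0.21, adjusted p = 0.000877). Ccng2, an atypical cyclin linked to cell cycle arrest, stood at 168, 154 and 200.3 CPM in Y541S E2P4 against 59.2, 51.7 and 44.0 CPM in Y541S P4 (1.75 ± 0.28, adjusted p = 0.000988). Neither gene had an overlapping library, which held for 308 of the 310 genes called. Ddit4l, an inhibitor of mTOR signalling, was at 60.2, 51.9 and 82.3 CPM in Y541S E2P4 against 8.41, 5.43 and 6.41 CPM in Y541S P4 (3.26 ± 0.43, adjusted p = 0.000118). Pdk4, the kinase that turns off pyruvate dehydrogenase, was at 212, 239 and 246 CPM in Y541S E2P4 against 35.9, 29.9 and 20.7 CPM in Y541S P4 (3.01 ± 0.54, adjusted p = 0.00202). Cited2 rose by 2.15 ± 0.48 (adjusted p = 0.0155). Its adjusted p was 0.0986 without Y541S E2P4 library 2 and 0.0671, 0.106 and 0.0725 without Y541S P4 library 1, 2 and 3. These 5 genes and Cited2 are the 6 of 17 tested members called higher on a list of FOXO target genes and growth restraint. Of all genes tested, 0.879% were called higher. The list was put together after these values were seen, so its count cannot serve as support for a shared theme. No member was called lower, the list median was 0.43, and the other 11 members were not called.

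**Figure D2:**
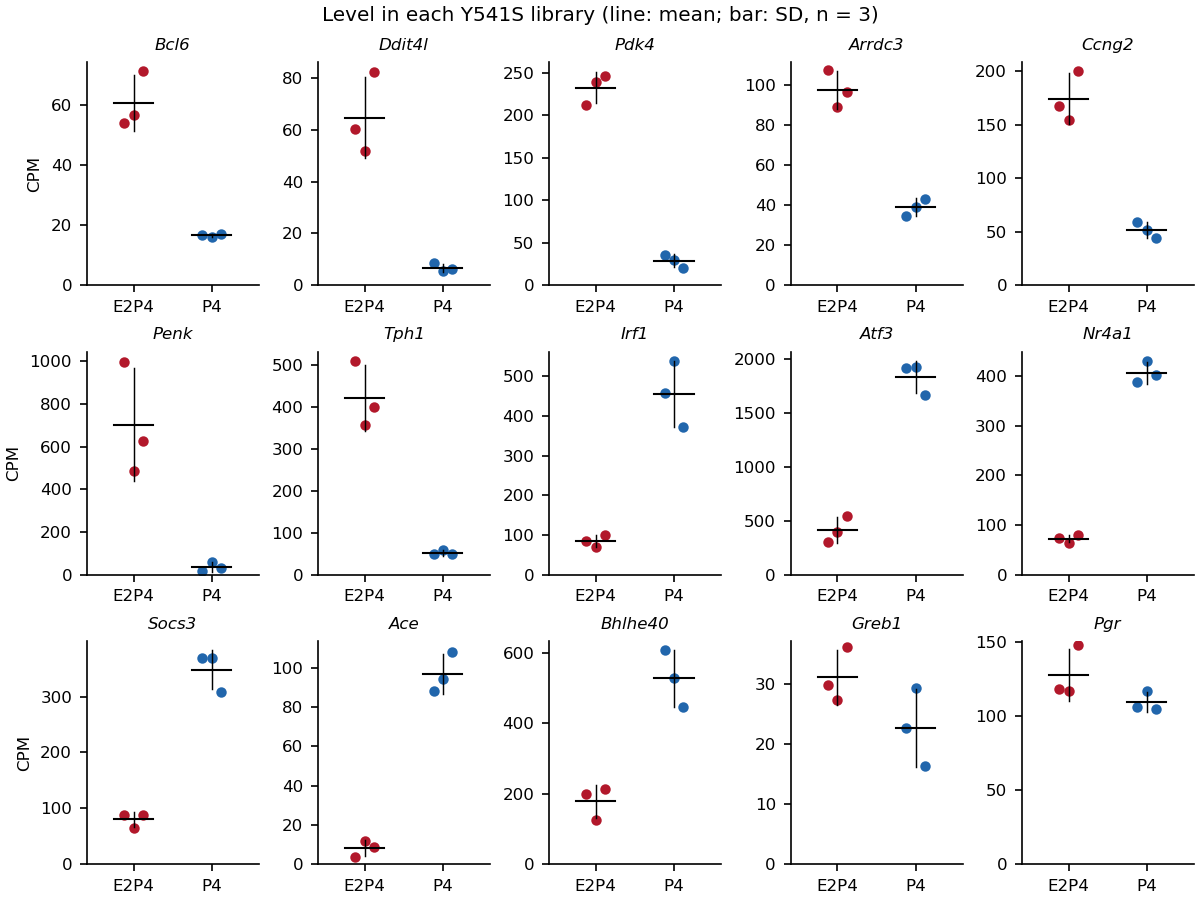
Each panel gives 1 gene, with the CPM of each Y541S library on a y axis that starts at 0 (red: E2P4, left; blue: P4, right; line: mean; bar: SD, n = 3). The libraries of the groups separate for Bcl6, Ddit4l, Pdk4, Arrdc3, Ccng2, Penk and Tph1 above P4 and for Irf1, Atf3, Nr4a1, Socs3, Ace and Bhlhe40 below it, while for Greb1 and Pgr they overlap or touch.

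The promoter of Bcl6 is shown because Bcl6 had the smallest adjusted p of the genes that rose. In this and the later promoter sequences, given 5′ to 3′ along the gene from RefSeq on GRCm38.p6, the 250 bases before an annotated start are printed and the searched motif is in capitals. RefSeq lists 2 starts for Bcl6. The window of 1 of them holds the STAT5 consensus TTCCNGGAA at 2 places, ending 160 and 80 bases before the start. That window lies inside the gene span given above, and the STAT5 consensus was picked for display from 11 motifs searched. Of 32851 promoters of this length, 0.913% hold that motif on either strand.

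Bcl6 promoter, chr16:23981284-23981533, minus strand: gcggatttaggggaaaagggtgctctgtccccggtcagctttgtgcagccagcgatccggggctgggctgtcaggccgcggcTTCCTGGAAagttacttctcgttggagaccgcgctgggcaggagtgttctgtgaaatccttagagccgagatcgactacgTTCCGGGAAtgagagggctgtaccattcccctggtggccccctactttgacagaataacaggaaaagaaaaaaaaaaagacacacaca

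Myc and 3 cell cycle inhibitor genes rose. Of 16 genes of cell cycle entry and CDK inhibition, 4 were called higher and none lower, and the list median was 0.16. Of all genes tested, 0.879% were called higher. Myc, a transcription factor of growth, was at 497, 659 and 580.1 CPM in Y541S E2P4 against 194, 203 and 205 CPM in Y541S P4 (1.53 ± 0.30, adjusted p = 0.00632), and lost its call only in the fit of the 12 Y541S libraries (0.0746) among the 13 alternatives. The other 3 encode inhibitors of cyclin-dependent kinases. Cdkn2b was at 36.1, 28.5 and 35.2 CPM in Y541S E2P4 against 12.4, 8.65 and 13.5 CPM in Y541S P4 (1.53 ± 0.32; adjusted p = 0.00879, 0.089 without Y541S P4 library 2). Cdkn1c rose by 2.16 ± 0.51 (adjusted p = 0.0251) and Cdkn1a, which encodes p21, by 1.03 ± 0.27 (adjusted p = 0.0443). Both of these lost their calls without Y541S E2P4 library 2 or 3 or any Y541S P4 library, Cdkn1a also without Y541S E2P4 library 1. They then had adjusted p values up to 0.13 for Cdkn1c and 0.203 for Cdkn1a. In the fit of all 37 libraries no gene of the S phase or the G2 and mitosis list was called by edgeR or DESeq2, and none had an unadjusted p under 0.05. edgeR fitted to the 6 libraries alone, where 6.72% of genes were called higher, called 13 of 27 S phase genes higher and none lower, and 11 of 30 G2 and mitosis genes higher and 1 lower. The fit of the 12 Y541S libraries called 1 S phase gene higher. A positive log2 fold change was found for 27 of 27 S phase genes and 28 of 30 G2 and mitosis genes, each list with a median of 0.36, beside 8877 of all 18426 genes. Mki67, a marker of cycling cells, was at 50.4, 43.3 and 57.3 CPM in Y541S E2P4 against 39.2, 43.8 and 36.0 CPM in Y541S P4 (adjusted p = 0.96).

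Some of the genes for making, folding and exporting secreted proteins rose, by small amounts. Of 25 genes of the unfolded protein response and folding in the endoplasmic reticulum (ER), 9 were called higher and none lower. A positive log2 fold change was found for 22 of them, and the median was 0.53. Among all genes tested, 0.879% were called higher, 8877 of 18426 had a positive log2 fold change and the median was -0.01. Pdia6, a protein disulfide isomerase, was at 1312, 1317 and 1619.8 CPM in Y541S E2P4 against 730.0, 740.3 and 724 CPM in Y541S P4 (0.95 ± 0.17, adjusted p = 0.00173). Calr, the lectin chaperone calreticulin, was at 1007, 1113 and 1198 CPM in Y541S E2P4 against 689, 669 and 650.1 CPM in Y541S P4 (0.73 ± 0.13, adjusted p = 0.00173). In both genes the lowest E2P4 library stood well above the highest P4 library. Pdia4 rose by 0.94 ± 0.17 and Manf, a secreted stress factor of the ER, by 0.96 ± 0.16, although 92.3% of the span of Manf overlaps other genes. These 4 kept their calls in all 13 alternatives, whereas Hsp90b1, Pdia3, Sdf2l1, Creld2 and Sec61b each lost theirs without at least 1 library, at adjusted p values up to 0.181. Without 1 library at a time, 8, 8 and 5 of the 25 were called higher when Y541S E2P4 library 1, 2 or 3 was left out, and 6, 4 and 5 when Y541S P4 library 1, 2 or 3 was.

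The later steps of the route were examined with lists added after the values were seen. For signal peptide handling and N-glycan transfer, 11 of 34 genes were called higher, none lower, and 33 had a positive log2 fold change (median 0.43). Of all genes tested, 0.879% were called higher and 8877 of 18426 had a positive log2 fold change. Ddost, a subunit of the oligosaccharyltransferase, was at 1148, 1079.6 and 1294 CPM in Y541S E2P4 against 675, 666 and 670.2 CPM in Y541S P4 (0.81 ± 0.13, adjusted p = 0.00109). Ssr2, of the translocon-associated complex, was at 646, 678 and 744 CPM in Y541S E2P4 against 358, 335 and 351 CPM in Y541S P4 (0.98 ± 0.13, adjusted p = 0.000118). Ssr1, Spcs3 of the signal peptidase and Ostc rose by 0.66 to 0.96 on the log2 scale. For the COPII coat and the cargo receptors between ER and Golgi, 8 of 25 were called higher and none lower (median 0.44). The same 0.879% of all genes stands beside that count. Sec24d, a cargo-binding COPII coat subunit, was at 163, 198 and 233 CPM in Y541S E2P4 against 64.3, 58.3 and 58.4 CPM in Y541S P4 (1.71 ± 0.25, adjusted p = 0.000344), and Mcfd2, a partner of the cargo receptor Lman1, rose by 0.74 ± 0.11. Fkbp11, a prolyl isomerase of secretory cells, was at 65.2, 69.1 and 62.9 CPM in Y541S E2P4 against 25.4, 18.5 and 17.7 CPM in Y541S P4 (1.68 ± 0.24, adjusted p = 0.000209). The genes named in this paragraph kept their calls in all 13 alternatives apart from Lman1 (0.68 ± 0.13; adjusted p = 0.00588, 0.0533 without Y541S P4 library 3). Without 1 library at a time the first list had 5 or 6 members called higher, and the second had 4, 4 and 3 without Y541S E2P4 library 1, 2 and 3 and 3, 3 and 2 without Y541S P4 library 1, 2 and 3.

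**Figure D3:**
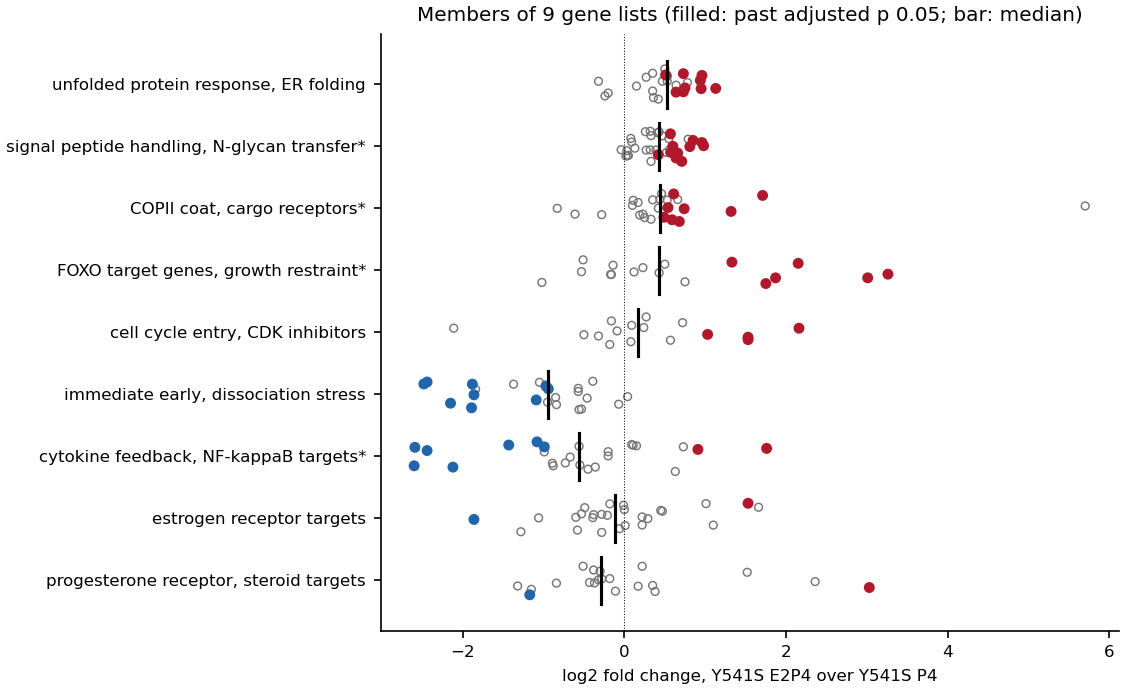
Each row is a gene list and each point a member, placed by its log2 fold change of Y541S E2P4 over Y541S P4 (filled red: called higher; filled blue: called lower; open: not called; bar: list median; asterisk: list made after the values were seen). Lists without an asterisk were chosen with earlier results of these data known. The 3 secretory lists at the top lie to the right of 0 with medians of 0.53, 0.43 and 0.44. The immediate early list lies to the left with a median of -0.95.

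The ER stress response element, read here as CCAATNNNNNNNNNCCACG on either strand, was found in 0.113% of all 32851 promoters and in 18 of 12666 tested genes with a promoter entry (0.142%). Among genes called higher it was in 4 of 122 with an entry (3.28%), namely Pdia6, Calr, Creld2 and Hsp90b1, and among genes called lower in 0 of 115. All 4 belong to the unfolded protein response list, of which 8 of 22 members with an entry (36.4%) hold the motif, so the count among the called genes is not separate from the list. Their promoters follow, with the motif in capitals. Hsp90b1 carries it at 2 places, ending 194 and 89 bases before the start, and the nearest match ends 80 bases before the start in Pdia6, 108 in Creld2 and 144 in Calr. The full estrogen response element GGTCANNNTGACC was in 0 of the 122 and 0 of the 115 windows, against 0.0639% of all promoters, and the full progesterone response element GAACANNNTGTTC was likewise in none, against 0.0396%. An absent match says only that these letters are not within 250 bases of the start.

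Pdia6 promoter, chr12:17266339-17266588, plus strand: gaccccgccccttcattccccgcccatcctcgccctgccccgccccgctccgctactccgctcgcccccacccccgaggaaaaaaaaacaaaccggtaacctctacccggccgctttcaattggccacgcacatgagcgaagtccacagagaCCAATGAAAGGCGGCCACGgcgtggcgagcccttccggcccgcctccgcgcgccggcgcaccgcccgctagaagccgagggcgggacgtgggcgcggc

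Calr promoter, chr8:84846932-84847181, minus strand: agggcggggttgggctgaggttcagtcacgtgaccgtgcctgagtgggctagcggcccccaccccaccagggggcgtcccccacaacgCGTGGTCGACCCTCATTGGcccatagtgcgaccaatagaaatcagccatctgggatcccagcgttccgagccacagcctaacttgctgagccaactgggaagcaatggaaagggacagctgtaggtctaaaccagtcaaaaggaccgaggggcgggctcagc

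Creld2 promoter, chr15:88819396-88819645, plus strand: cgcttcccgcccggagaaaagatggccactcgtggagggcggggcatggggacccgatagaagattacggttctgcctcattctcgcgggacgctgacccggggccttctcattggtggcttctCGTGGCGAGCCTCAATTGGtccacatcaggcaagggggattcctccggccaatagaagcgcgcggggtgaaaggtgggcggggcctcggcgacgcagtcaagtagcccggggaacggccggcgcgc

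Hsp90b1 promoter, chr10:86705445-86705694, minus strand: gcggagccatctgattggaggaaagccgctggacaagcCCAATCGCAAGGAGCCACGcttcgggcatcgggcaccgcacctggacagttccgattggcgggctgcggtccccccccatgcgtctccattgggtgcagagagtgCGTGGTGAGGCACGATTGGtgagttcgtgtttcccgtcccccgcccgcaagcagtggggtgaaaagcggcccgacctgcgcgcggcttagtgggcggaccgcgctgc

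Immediate early and dissociation stress genes, many but not all of them transcription factors, were among the genes that fell. Cells switch on immediate early genes within minutes of a stimulus or of tissue dissociation. Of 23 tested, 9 were called lower and none higher, where 0.803% of all genes were called lower. A negative log2 fold change was found for 22, and the list median was -0.95, beside -0.01 over all genes. Atf3, a stress-induced factor (chromosome 1, 191170296 to 191218039), was at 304, 395 and 544 CPM in Y541S E2P4 against 1922, 1928 and 1669.6 CPM in Y541S P4 (-2.15 ± 0.33, adjusted p = 0.000599). Nr4a1, an orphan nuclear receptor, was at 74.4, 64.7 and 79.3 CPM in Y541S E2P4 against 388, 430.3 and 401 CPM in Y541S P4 (-2.48 ± 0.43, adjusted p = 0.00173). Egr1, a zinc finger factor, was at 281, 199 and 251 CPM in Y541S E2P4 against 1004, 1028 and 651 CPM in Y541S P4 (-1.88 ± 0.38, adjusted p = 0.0073). The calls of these 3 held in all 13 alternatives. No E2P4 library reached the level of any P4 library for them. Such a lack of overlap was found for 308 of the 310 genes called and 29.0% of all genes tested. Fos, Fosb, Nr4a2, Junb, Ier3 and Btg2 fell by 0.94 to 2.44 on the log2 scale; each of them lost its call without at least 3 of the 6 libraries in turn, at adjusted p values up to 0.221. Left out one after another, Y541S E2P4 library 1, 2 and 3 gave 3, 3 and 4 members called lower, and Y541S P4 library 1, 2 and 3 gave 3, 4 and 6. The list's summed level was 6909, 7526 and 8507 CPM in Y541S E2P4 against 15590.0, 14475 and 12258 CPM in Y541S P4, and the groups did not overlap.

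Genes of cytokine feedback and NF-kappaB were put on a list that was also made after the values were seen. Of 25 tested, 7 were called lower and 2 higher. The other 16 were not called, and the median was -0.56. Of all genes tested, 0.803% were called lower and 0.879% higher. Irf1, a transcription factor induced by interferon gamma (chromosome 11, 53770014 to 53778374), was at 84.1, 68.7 and 98.8 CPM in Y541S E2P4 against 457, 537 and 371 CPM in Y541S P4. With a log2 fold change of -2.44 ± 0.17 it had the smallest adjusted p of all genes, 4.8e-10, and 0.00018 was its largest in the 13 alternatives. Socs3, the feedback inhibitor of cytokine receptor signalling, was at 88.9, 64.2 and 87.3 CPM in Y541S E2P4 against 368, 368 and 308 CPM in Y541S P4 (-2.12 ± 0.31, adjusted p = 0.00034). Nfkbiz, a coregulator of NF-kappaB, was at 25.1, 31.3 and 52.3 CPM in Y541S E2P4 against 174, 263 and 219.9 CPM in Y541S P4 (-2.60 ± 0.49, adjusted p = 0.00431). Nfkbia, the inhibitor of NF-kappaB, was at 514, 466 and 548 CPM in Y541S E2P4 against 1062, 1006 and 963 CPM in Y541S P4 (-0.99 ± 0.18, adjusted p = 0.00267). The groups did not overlap for any of these 4, as for 308 of the 310 genes called. Tnf fell by 2.59 ± 0.44 and Pim3, a kinase, by 1.08 ± 0.18, and the call of Rel (-1.43 ± 0.36, adjusted p = 0.0371) was lost without any library but Y541S P4 library 3, at up to 0.228. The 2 that rose were Socs2, a target of prolactin and growth hormone signalling (1.76 ± 0.44, adjusted p = 0.0346), and Osmr, the oncostatin M receptor (0.91 ± 0.23, adjusted p = 0.0396). Socs2 lost its call without any of the 6 libraries, at up to 0.157, and Osmr without any but Y541S P4 library 1, at up to 0.256. None of 25 type I interferon response genes was called by edgeR or DESeq2 (3 at an unadjusted p under 0.05), and their median was 0.03.

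Single genes with large falls had various roles. Ace, the angiotensin converting enzyme, was at 3.80, 11.9 and 8.63 CPM in Y541S E2P4 against 88.0, 94.3 and 108 CPM in Y541S P4 (-3.58 ± 0.53, adjusted p = 0.000344); 80.6% of its span overlaps other genes. The paired circadian repressor genes Bhlhe40 and Bhlhe41 fell by 1.56 ± 0.24 (adjusted p = 0.000599) and 1.40 ± 0.20 (adjusted p = 0.000209). Bhlhe40 was at 198, 124 and 213 CPM in Y541S E2P4 against 607, 528 and 444 CPM in Y541S P4, and Bhlhe41 at 13.8, 18.9 and 13.9 CPM in Y541S E2P4 against 41.4, 39.4 and 42.5 CPM in Y541S P4. Gcc1, a Golgi coiled-coil protein, fell by 2.25 ± 0.31 (adjusted p = 0.000205). Atp2a3, an ER calcium pump, was at 41.1, 46.7 and 60.7 CPM in Y541S E2P4 against 273, 329.6 and 236 CPM in Y541S P4 (-2.50 ± 0.51; adjusted p = 0.00726, 0.0544 without Y541S E2P4 library 1).

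Some large falls rested on Y541S P4 library 1. Fgb, the fibrinogen beta chain, was at 2.13, 2.98 and 1.19 CPM in Y541S E2P4 and at 359, 32.1 and 13.4 CPM in Y541S P4. Its fitted log2 fold change of -6.0 ± 1.23 (adjusted p = 0.00771) had an adjusted p of 0.131 without Y541S P4 library 1, 0.052 without Y541S E2P4 library 1 and 0.0701 without Y541S E2P4 library 3 and 0.0826 in the fit of the 12 Y541S libraries, although each P4 library was above each E2P4 library. Fgg, the neighbouring gamma chain gene, was at 8.98, 16.6 and 10.6 CPM in Y541S E2P4 against 490.4, 39.7 and 27.2 CPM in Y541S P4 (-3.94 ± 1.01, adjusted p = 0.0384). Without P4 library 1 the log2 fold change was -1.47 and the adjusted p 0.625, and leaving out Y541S E2P4 library 1, 2 or 3 gave 0.177, 0.109 and 0.183. Fgg also lost its call with no filter on low counts and with the replicate number as a block. So it did in the fits of the 12 Y541S libraries and of the 6 libraries alone. Fam25c and Kcnh1, a potassium channel gene, were likewise highest in P4 library 1, at 27.7 and 34.4 CPM. Their adjusted p values were 0.0073 and 0.0431 in the fit of all libraries and 0.0798 and 0.324 without that library, Fam25c also losing its call without Y541S E2P4 library 3 (0.0619) and Kcnh1 without any of the 6 libraries. Klk1b27, a kallikrein gene with near-identical relatives among which reads may be split, was at 34.9 CPM in P4 library 1 and at 0.335 and 0.111 CPM in the other two. Its call (adjusted p = 0.00318) was lost without library 1 (0.326). Upk3a, Klk1 and Cited1 were also highest in that library, and none of them was called.

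Several groups showed no call in either direction in the fit of all 37 libraries. Among 19 luminal progenitor and alveolar genes edgeR called 0, with 5 at an unadjusted p under 0.05 and 3 called by DESeq2. Among 17 genes of milk protein and lipid secretion edgeR called 0, with 7 at an unadjusted p under 0.05 and 2 called by DESeq2, all higher. The median of the milk genes was 1.08, and their libraries scattered widely. The summed luminal progenitor markers, which did not overlap between the groups, moved with them, and their part in these values was not tested. Over the 8 single markers the median log2 fold change was only 0.16, with 7 of 8 positive. Of all genes tested, 29.0% had groups that did not overlap. Csn2, beta-casein, was at 227, 53.7 and 50.6 CPM in Y541S E2P4 against 0.343, 1.39 and 0.889 CPM in Y541S P4 (6.98 ± 2.09, adjusted p = 0.092, and 0.00174 in the fit of the 6 libraries alone). Slpi, a secreted protease inhibitor, was at 308, 386 and 364 CPM in Y541S E2P4 against 43.1, 56.7 and 55.1 CPM in Y541S P4 without overlap, and missed the threshold (2.77 ± 0.76, adjusted p = 0.0572), which it passed with DESeq2 (0.00383) and in the fit of the 12 Y541S libraries (0.00546). Sftpd, a collectin, was at 15.6, 21.5 and 35.4 CPM in Y541S E2P4 against 5.33, 7.87 and 7.89 CPM in Y541S P4 (1.78 ± 0.50, adjusted p = 0.0597, and 0.0163 with DESeq2). The remaining lists with 0 calls by edgeR are given with the members at an unadjusted p under 0.05, which 2228 of all 18426 genes had (12.1%). There were 5 of 25 for cholesterol and fatty acid synthesis, 5 of 17 for glucose transport and glycolysis, 0 of 11 for uroplakins and mucins and 5 of 17 for chemokines and defence proteins. There were 5 of 23 for growth factor ligands and ErbB receptors, 9 of 26 for nuclear receptors and 0 of 12 for mitochondrially encoded genes. DESeq2, which called 643 genes in all, called 3 nuclear receptor genes, 2 genes of chemokines and defence proteins, and 1 gene each of glycolysis and of growth factors. The 6 libraries alone gave calls on every one of these lists but the mitochondrial one, with 5 of 14 milk genes higher and 5 of 17 luminal progenitor and alveolar genes higher and 3 lower. Of all genes in that fit, 12.8% were called, and 6.72% were called higher. Of 21 coactivators and corepressors Kdm1a, a histone demethylase, fell (-0.63 ± 0.15; adjusted p = 0.0331, and between 0.0834 and 0.238 without any library but Y541S E2P4 library 2). A missed threshold does not show that such genes were alike in both groups.

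Beside the 310 genes called in Y541S cells, edgeR called 4274 (23.2%) for the same addition of E2 in WT cells. The counts were 262 in Y541S and 1699 in WT cells with the replicate number as a block, 457 in Y541S and 2792 in WT cells in the libraries of the first identifier series, and 643 in Y541S and 4955 in WT cells with DESeq2. Of the 310, 262 had the same sign in WT cells and 189 were called there in the same direction, which is 61.0% of the Y541S calls and 4.42% of the WT calls; 12 were called in the opposite direction. A test of the difference between the responses called 1066 genes (5.79%), 426 with the higher (2.31%) and 640 with the lower (3.47%) log2 fold change in Y541S cells. Of these, 922 were called in WT cells only, 38 in Y541S cells only, 46 in both and 60 in neither. The count of 1066 was 709 without Y541S E2P4 library 1.

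Bcl6 and Arrdc3 stood on opposite sides of 0 in these genotypes. Bcl6 averaged 14.1 ± 2.04 CPM in WT E2P4 and 32.8 ± 2.93 CPM in WT P4 (SD, n = 3 and 4), a log2 fold change of -1.22 ± 0.21, and the difference between the Y541S and the WT response was 3.09 (adjusted p = 3.78e-07). Arrdc3 averaged 75.6 ± 20.6 CPM in WT E2P4 and 163 ± 22.7 CPM in WT P4 (-1.11 ± 0.20), with a difference of 2.43 (adjusted p = 3.85e-06). Atp2a3 went the other way, at 174 ± 66.8 CPM in WT E2P4 and 24.5 ± 2.67 CPM in WT P4 (2.83 ± 0.46), with a difference of -5.32 (adjusted p = 1.01e-05). For Cthrc1 the WT log2 fold change was -0.03 ± 0.24 and the difference 2.05 (adjusted p = 0.000481). All 4 differences were called in every one of 18 alternatives, which include leaving out each library of the 4 groups. Irf1 was lower under E2P4 in WT cells too, at 65.4 ± 3.73 CPM in WT E2P4 against 286 ± 44.4 CPM in WT P4 (-2.13 ± 0.16). The difference was -0.31 (adjusted p = 0.495), a p that does not show the responses to be equal. Of the secretory genes, 17 of 25 folding genes, 28 of 34 signal peptide genes and 16 of 25 COPII genes were called higher in WT cells, where 12% of all genes were. By the test of the difference, the log2 fold change was lower in Y541S cells for 3, 10 and 3 members of those lists. That test called 3.47% of all genes lower. Of the 23 immediate early genes, 11 were called lower and 1 higher in WT cells, where 11.1% of all genes were called lower. The test of the difference called 4 of these 23 lower in Y541S cells, beside the same 3.47% of all genes.

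**Figure D4:**
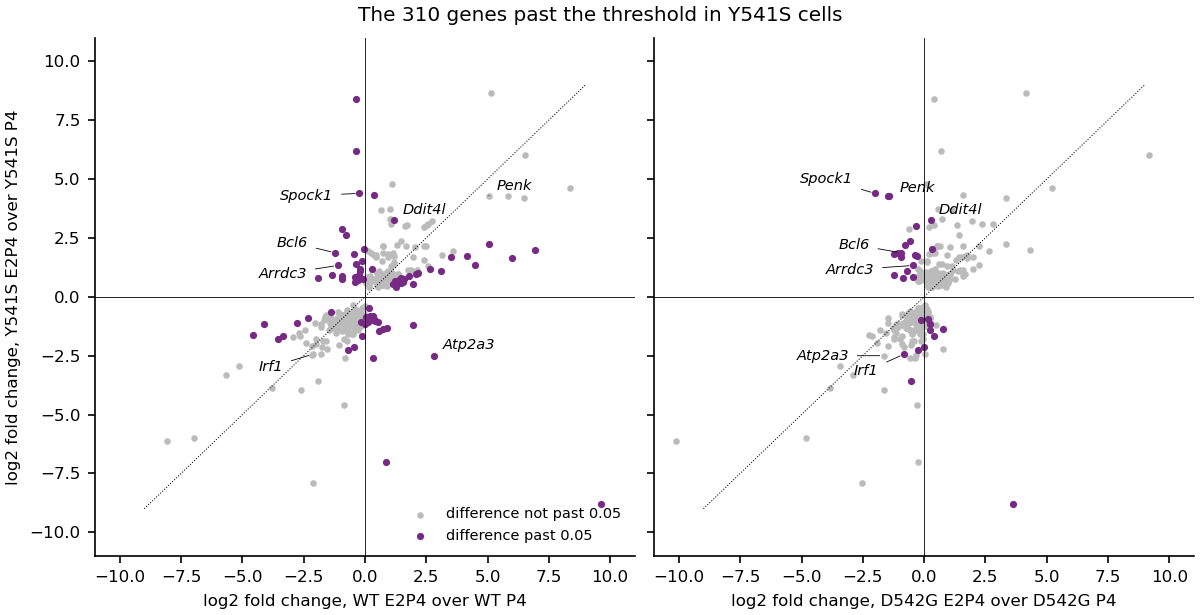
Each point is 1 of the 310 genes called in Y541S cells, with its log2 fold change there on the y axis and that in WT cells (left) or D542G cells (right) on the x axis; the dotted line marks equal responses and purple points have a called difference. Most points share a sign between genotypes, while Bcl6, Arrdc3 and Spock1 lie left of 0 in both panels and Atp2a3 lies right of 0 in the WT panel only.

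**Figure D5:**
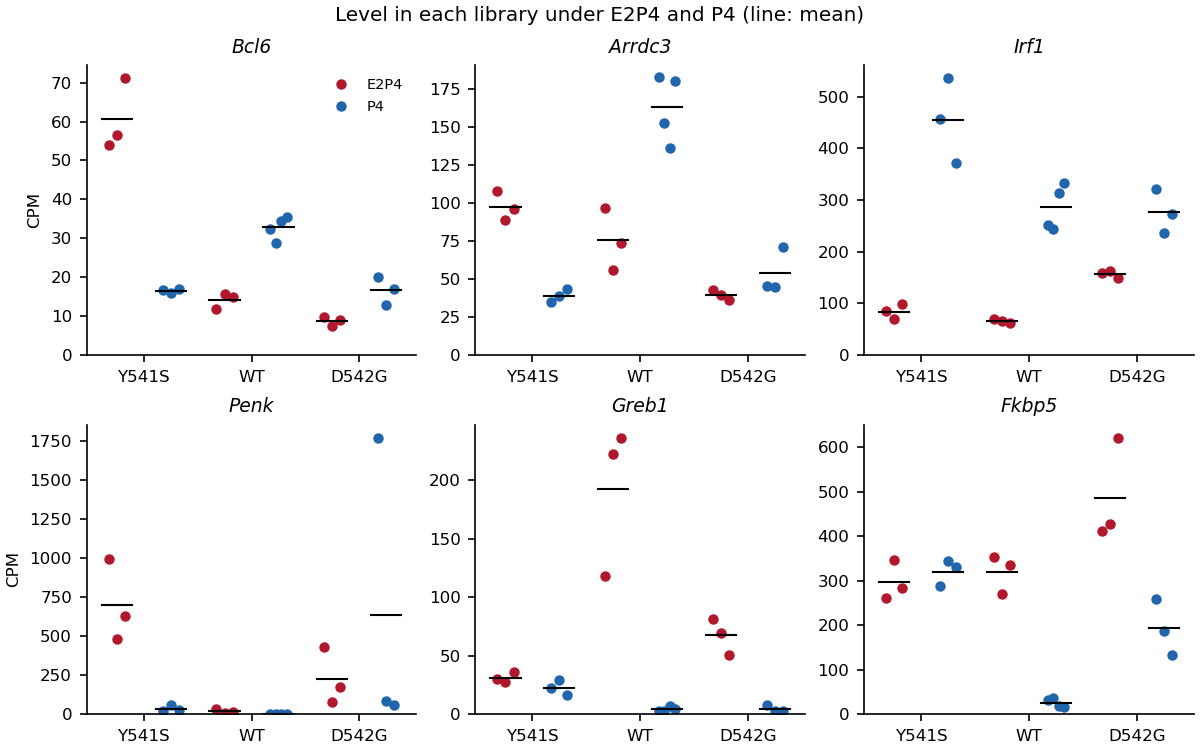
Each panel gives the CPM of 1 gene in every E2P4 (red) and P4 (blue) library of Y541S, WT and D542G cells, with a line at each mean and a y axis that starts at 0. Bcl6 is higher under E2P4 in Y541S cells and lower in the other genotypes, and Greb1 and Fkbp5 separate by hormone in WT and D542G libraries but overlap in Y541S libraries.

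In D542G cells, which carry the neighbouring substitution, E2 on top of P4 called 953 genes (5.17%), and 106 of the 310 were called there in the same direction, 34.2% of the Y541S calls and 11.1% of the D542G calls. The test of the difference called 87 genes (0.472%), 37 with the higher (0.201%) and 50 with the lower (0.271%) log2 fold change in Y541S cells. The 953 became 459 and 566 without D542G E2P4 library 1 and 3 and 483 and 614 without D542G P4 library 2 and 3. The 87 became 33 and 45 without Y541S E2P4 library 1 and 3, 34, 48 and 36 without Y541S P4 library 1, 2 and 3, 47, 54 and 45 without D542G E2P4 library 1, 2 and 3, and 57 without D542G P4 library 1. Bcl6 averaged 8.66 ± 1.12 CPM in D542G E2P4 and 16.6 ± 3.66 CPM in D542G P4 (SD, n = 3 each), a log2 fold change of -0.94 ± 0.22 that differed from the Y541S response by 2.82 (adjusted p = 1.17e-05). Arrdc3 differed by 1.77 (adjusted p = 0.00335), Spock1 by 6.39 (adjusted p = 0.00771), Ddit4l by 2.99 (adjusted p = 0.011) and Irf1 by -1.62 (adjusted p = 0.000557), and these 5 differences were called in all 17 alternatives. Atf3 averaged 2120.3 ± 130 CPM in D542G E2P4 and 2147.3 ± 794 CPM in D542G P4, and none of the 23 immediate early genes was called in D542G cells, where 2.18% of all genes were called lower, by edgeR or DESeq2 (1 at an unadjusted p under 0.05). The test of the difference called 1 of the 23, Atf3, lower in Y541S cells and none higher. The difference in the Atf3 response was -2.13 (adjusted p = 0.0262), and it missed the threshold, at adjusted p values up to 0.0967, without any Y541S library but E2P4 library 3, without D542G E2P4 library 2 or 3 and without D542G P4 library 1 or 3. Of the 25 folding genes, 13 were called higher in D542G cells, where 2.99% of all genes were, and the test of the difference called none of them. Greb1 rose by 3.96 ± 0.55 in D542G cells, and the Y541S response differed from it by -3.51 (adjusted p = 0.0178; up to 0.0604 without D542G P4 library 2, Y541S E2P4 library 1 or Y541S P4 library 2).

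E2 without P4, against placebo, called 857 genes (4.65%). Of the 310, which were chosen by their calls with P4, 51 were called there in the same direction, 16.5% of the calls made with P4 and 5.95% of those made without it. The test of the difference called 104 genes (0.564%), 64 with the higher (0.347%) and 40 with the lower (0.217%) log2 fold change in the presence of P4. Without placebo library 5, the only Y541S library of a later identifier series, the 857 became 1786 and the 104 became 497. The 857 also became 299 and 357 without Y541S E2 library 1 and 3 and 377 and 300 without Y541S placebo library 2 and 3. The 104 became 63 and 56 without Y541S E2P4 library 1 and 3, 58, 38 and 31 without Y541S P4 library 1, 2 and 3, 35 and 48 without Y541S E2 library 1 and 3, and 54 and 40 without Y541S placebo library 2 and 3. Bcl6 averaged 24.3 ± 6.11 CPM in Y541S E2 and 43.5 ± 2.87 CPM in Y541S placebo (-0.84 ± 0.21), lower with E2 in the absence of P4 and higher with E2 in its presence, a difference of 2.71 (adjusted p = 1.17e-05). Arrdc3 did the same, at 55.6 ± 4.21 CPM in Y541S E2 and 128 ± 18.7 CPM in Y541S placebo (-1.20 ± 0.21; difference 2.52, adjusted p = 2.24e-05). Irf1 averaged 206 ± 13.4 CPM in Y541S E2 and 175 ± 29.0 CPM in Y541S placebo (0.23 ± 0.16), against its fall with P4, a difference of -2.67 (adjusted p = 9.71e-08). Prdm1 fell short of a call without P4 (-1.79 ± 0.58, adjusted p = 0.0726) and differed by 4.83 (adjusted p = 0.00397). These 4 differences were called in all 18 alternatives. In E2 against placebo, edgeR and DESeq2 called none of the 23 immediate early genes (1 at an unadjusted p under 0.05, with 2.78% of all genes called lower by edgeR), and edgeR called 2 of the 25 folding genes. The test of the difference between the responses called none of either list. In E2 against placebo 17 of the 25 interferon response genes were called higher, where 1.87% of all genes were, with a median of 2.06, and the response of 5 of these interferon genes was lower with P4 by the test of the difference.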

How the data were processed

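Counts per gene (whole numbers, 52636 genes) and RPKM were deposited by the authors for 37 libraries, on build GRCm38 per the submitters' processing notes. The aligner, the counter and its strand setting are not given in the sources used here. Only the deposited counts were used and RPKM were not. Symbols and positions were taken from GENCODE M21, and 147 genes without a symbol, at most 0.007% of a library's counts, were left out of names. Counts of all 37 libraries, 25.69 to 52.24 M each, were fitted in edgeR 4.0.16 (R 4.3.3) with 1 coefficient per group, filterByExpr, TMM scaling (factors 0.77 to 1.17) and a robust quasi-likelihood fit. With 25 residual degrees of freedom, p-values were adjusted by Benjamini-Hochberg over 18426 genes. SE was obtained by dividing the absolute log2 fold change by the root of F. All groups shared the estimate of the spread, so SE and p-values also carry scatter from groups not compared. CPM are TMM-scaled. DESeq2 1.42.0, RLE factors, no filter, subsets of libraries, the sample number as a block and leaving out single libraries were the alternatives. Same-numbered Y541S E2P4 and P4 libraries did not deviate together (r of 0.012, -0.005 and -0.013), so numbers did not pair them. Within the Y541S groups every pair of libraries differed by more than sampling noise (a chi-square of 23.3 to 38.7 for each degree of freedom). An exact permutation of 3 against 3 libraries cannot go below 0.1, so single values were not tested that way.

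The members, the 20 gene lists and 9 marker lists were chosen with earlier results of these data known, and 4 lists were added after seeing the values. Genes named were the 12 largest rises and falls without overlap and with log2 CPM averaging 2 or more, a panel of 26, 4 per direction of each difference, the 4 members of smallest p per list, and others chosen after their values were seen (among them Bcl6, Arrdc3, Socs3, Ssr2, Csf1 and P4ha2). Of the 310 genes called, 8 had at most 3 counts in 1 group, where a fold change depends on the prior count.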

Additional observations from a re-analysis of the deposited data

Results flagged for a closer look

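Each gene here is given because edgeR's test of the difference between 2 responses to E2 passed an adjusted p of 0.05. Values are log2 differences, the Y541S response to E2 added to P4 minus the other response. Where the difference missed the threshold without 1 or more single libraries, this is said.

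Against WT cells, the lowest differences were those of Klk1 (-15.18), Acsl6 (-8.86), Sprr2g (-8.83), Pcp4 (-8.71), Sftpd (-7.34) and Ptpn5 (-6.51). Klk1, Acsl6 and Sprr2g were near 0 in WT P4 libraries, so their fitted sizes depend on the prior count, and Klk1 and Sprr2g have close relatives between which reads can be split. Acsl6 had an adjusted p of 0.991 without Y541S P4 library 1. Pcp4, a calmodulin-binding protein, averaged 371 ± 35.0 CPM in Y541S E2P4 and 473 ± 53.4 CPM in Y541S P4 (SD, n = 3 each), beside 196 ± 84.6 CPM in WT E2P4 (n = 3) and 0.593 ± 0.0924 CPM in WT P4 (n = 4). Ptpn5, a tyrosine phosphatase, averaged 113 ± 4.15 CPM in Y541S E2P4 and 79.3 ± 5.68 CPM in Y541S P4, beside 322 ± 98.8 CPM in WT E2P4 and 2.46 ± 0.405 CPM in WT P4. Both genes were thus well above the WT P4 level in Y541S cells under P4 alone.

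Lower differences from WT were also found for Atp2a3 (-5.32), Greb1 (-5.05), Fkbp5 (-3.75), Tnf (-2.93), P4ha2 (-2.8), Fkbp11 (-1.82), Atf3 (-1.71) and Gcc1 (-1.56). Atf3 missed the threshold without WT E2P4 library 3 or Y541S E2P4 library 1 (up to 0.0844), and Gcc1 without Y541S E2P4 library 1 or 2 or Y541S P4 library 2 (up to 0.0663). The highest differences were those of Ptn (5.43), Col8a1 (5.39), Nrxn3 (5.34), Upk3a (5.32) and Spock1 (4.62). Ptn, the growth factor pleiotrophin, averaged 810.5 ± 55.9 CPM in Y541S E2P4 and 1182 ± 333 CPM in Y541S P4, beside 98.8 ± 16.4 CPM in WT E2P4 and 6225 ± 1240.2 CPM in WT P4. Col8a1, a short-chain collagen, averaged 102 ± 18 CPM in Y541S E2P4 and 286 ± 78.2 CPM in Y541S P4, beside 11 ± 4.61 CPM in WT E2P4 and 1299.8 ± 207 CPM in WT P4. The Y541S levels of both lay between those of the WT groups. Bcl6 (3.09), Arrdc3 (2.43), Ddit4l (2.09), Cthrc1 (2.05) and Gata3 (1.2) also had higher values in Y541S cells. Upk3a missed the threshold without any WT E2P4 library, Y541S E2P4 library 1 or 2 or Y541S P4 library 2 or 3 (up to 0.0811). Spock1 missed it without WT E2P4 library 3 or Y541S P4 library 3 (up to 0.0587), Ddit4l without WT E2P4 library 1, Y541S E2P4 library 3 or Y541S P4 library 2 or 3 (up to 0.0645), and Gata3 without any 1 of 10 libraries of the 4 groups (up to 0.114). With the replicate block Acsl6, Spock1, Ddit4l, Gata3 and Upk3a also missed it, at 0.283, 0.148, 0.0726, 0.336 and 0.0512. So did Upk3a (0.0591) and Gata3 (0.0566) with no filter on low counts, and Gata3 in the first identifier series (0.0771).

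Against D542G cells, the lower differences were those of Klk1 (-8.04), Muc13 (-5.59), Ctns (-3.74), Nmb (-3.71), Tnxb (-3.64), Greb1 (-3.51), Ace (-3.06), Atf3 (-2.13), Gcc1 (-2.02) and Irf1 (-1.62). Ctns, the lysosomal cystine transporter, averaged 385 ± 93.3 CPM in Y541S E2P4 and 529 ± 40.7 CPM in Y541S P4, beside 488 ± 106 CPM in D542G E2P4 and 50.3 ± 12.5 CPM in D542G P4 (SD, n = 3 each). Nmb, the peptide neuromedin B, averaged 5.07 ± 0.460 CPM in Y541S E2P4 and 2.96 ± 0.867 CPM in Y541S P4, beside 87.0 ± 51.3 CPM in D542G E2P4 and 3.90 ± 0.489 CPM in D542G P4. The higher differences were those of Spock1 (6.39), Penk (5.77), Rhox5 (5.62), Angpt1 (3.45), Pdk4 (3.32), Ddit4l (2.99), Csf1 (2.94), Bcl6 (2.82), Ccng2 (2.05), Arrdc3 (1.77) and Cthrc1 (1.7). Without single libraries of the 4 groups, Ctns, Nmb, Irf1, Spock1, Ddit4l, Bcl6 and Arrdc3 kept their calls. Greb1 and Ccng2 missed the threshold by little, at up to 0.0604 (without D542G P4 library 2, Y541S E2P4 library 1 or Y541S P4 library 2) and 0.0508 (without Y541S P4 library 3). The other 12 missed it without 6 or more of the 12 libraries in turn, at largest adjusted p values between 0.0791 (Gcc1) and 0.52 (Klk1). Of these, Klk1, Muc13, Penk, Rhox5, Csf1 and Tnxb also missed it with no filter on low counts (0.0652 to 0.0813) and with the replicate block (0.0544 to 0.208).

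Between the presence and the absence of P4 in Y541S cells, lower differences were found for Cited1 (-3.67), Atp2a3 (-3.06), Nfkbiz (-2.99), Ackr3 (-2.87), Irf1 (-2.67) and Gcc1 (-2.41). Higher ones were found for Spock1 (6.58), Prdm1 (4.83), Kcnn3 (4.61), Ctse (4.33), Nrxn3 (3.9), Bcl6 (2.71), Ddit4l (2.65), Arrdc3 (2.52), Ccng2 (1.79) and Cthrc1 (1.58). Ackr3, a scavenging chemokine receptor, averaged 3.00 ± 1.39 CPM in Y541S E2P4 and 5.74 ± 1.22 CPM in Y541S P4, beside 38.2 ± 8.38 CPM in Y541S E2 and 9.97 ± 3.03 CPM in Y541S placebo. Atp2a3, Nfkbiz, Cthrc1, Ccng2 and Ddit4l missed the threshold without 6 or more of the 12 libraries in turn, Kcnn3 without 4 (Y541S E2 library 1 or 3, Y541S P4 library 2 and Y541S placebo library 2) and Nrxn3 without 3 (Y541S E2 library 1, Y541S P4 library 3 and Y541S placebo library 3), at largest adjusted p values between 0.0629 and 0.114. Spock1 and Cited1 missed it in the fit of the 12 Y541S libraries (0.0556 and 0.0562) and with the replicate block (0.077 and 0.0556), as did Ccng2 (0.0516 and 0.0559). Nrxn3 missed it in the fit of the 12 libraries (0.0614), Atp2a3 and Cthrc1 with the block (0.105 and 0.0787) and with no filter on low counts (0.0564 and 0.0609), and Nfkbiz with no filter (0.0546).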

How the results depend on the processing

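Counts of called genes moved with the tool and the libraries fitted. With DESeq2 they were 643 for Y541S E2P4 against Y541S P4 (337 higher, 306 lower), 1523 in D542G cells, 1439 for Y541S E2 against placebo, and 1632, 315 and 434 for the differences from WT, from D542G and from E2 without P4. The 6 libraries alone gave 1966 (1033 higher, 933 lower), the 12 Y541S libraries 252 higher, no filter on low counts 95 lower, and the libraries of the first identifier series 231 lower, 2792 in WT cells, 1743 for E2 against placebo, and 139 and 501 for the differences from D542G and from E2 without P4. The cause was not tested. With the replicate block the main count was 262, WT cells had 1699, the difference from WT 478 and that from E2 without P4 219. The Y541S E2P4 and P4 libraries gave no sign of such a pairing, and none of them correlated best with its own number. Deviations of same-numbered libraries correlated at 0.185, 0.272 and 0.054 in D542G E2P4 and P4. For Y541S E2 and placebo they correlated at 0.037 and 0.104, and for WT E2P4 and P4 at -0.154 and -0.005. Without 1 library the main count was 96 to 200 (39 to 96 higher, 54 to 113 lower), D542G cells had 459 to 969, E2 against placebo 299 to 1786, and the differences 709 to 1157 (WT), 33 to 78 (D542G) and 31 to 497 (E2 without P4), with fewer samples in each fit. RLE factors moved no count by over 1.5 times. Of 93 named genes called in Y541S cells, 35 kept the call in all 13 alternatives, 57 lost it without at least 1 library, and 0 of the 93 changed direction. The fit of the 12 Y541S libraries lost 16 of these calls, no filter on low counts 15 and the replicate block 17. Depth ranged from 32.67 to 44.4 M counts over the 6 libraries, and what it limits was not tested.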

Other observations

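Beyond the gene lists, 11 called genes had a mean of at least 500 CPM in 1 of the Y541S groups; they were chosen after their values were seen, and no explanation was tested. The most abundant was Gpx3, the secreted glutathione peroxidase, at 28466, 30320.0 and 30518 CPM in Y541S E2P4 against 9794, 10676 and 8254 CPM in Y541S P4. Each E2P4 library held more than each P4 library (1.64 ± 0.41; edgeR adjusted p = 0.0336, and over the threshold without any 1 of the 6 libraries, at up to 0.162). P4hb, a protein disulfide isomerase that also serves as a collagen prolyl hydroxylase subunit beside P4ha2, was at 2429.8, 2471 and 3010.0 CPM in Y541S E2P4 against 1764, 1633 and 1691 CPM in Y541S P4 (0.64 ± 0.17; adjusted p = 0.0481, up to 0.259 without any 1 library). Os9, a lectin of ER-associated degradation, was at 526, 482 and 647 CPM in Y541S E2P4 against 393, 377 and 346 CPM in Y541S P4 (0.57 ± 0.14; adjusted p = 0.0304, up to 0.230 without any library but Y541S E2P4 library 2). Tcn2, the vitamin B12 carrier transcobalamin, was at 514, 469 and 647 CPM in Y541S E2P4 against 251, 206 and 186 CPM in Y541S P4 (1.34 ± 0.24, adjusted p = 0.00192), and its call held in all 13 alternatives.

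Regulators also stood among these abundant genes. Rgs2, a brake on G protein signalling, was at 480.1, 663 and 612 CPM in Y541S E2P4 against 173, 181 and 175 CPM in Y541S P4 (1.73 ± 0.43; adjusted p = 0.0361, up to 0.139 without any 1 library). Klf5, a zinc finger transcription factor, rose by 1.08 ± 0.27 (adjusted p = 0.0312, up to 0.129 without any library but Y541S E2P4 library 1), Fam107b by 1.96 ± 0.44 (adjusted p = 0.0165, up to 0.0984 without the same libraries and 0.114 in the fit of the 12 Y541S libraries) and Zfand5 by 0.87 ± 0.18 (adjusted p = 0.00953, up to 0.0656 without Y541S P4 library 2 or 3). The 3 that fell were Dnajb1, a heat shock cochaperone, Klf10 and Tsc22d1, both transcription factor genes. Dnajb1 was at 333, 494 and 371 CPM in Y541S E2P4 against 691, 756 and 866 CPM in Y541S P4 (-0.95 ± 0.17, adjusted p = 0.00293), with its call held in all 13 alternatives. Klf10 fell by 0.97 ± 0.24 (adjusted p = 0.0331, up to 0.134 without any 1 library) and Tsc22d1 by 1.34 ± 0.30 (adjusted p = 0.0163, up to 0.0854 without any library but Y541S E2P4 library 1 and 0.0863 in the fit of the 12 Y541S libraries).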
